A study of Homo sapiens with 7 samples.

Results

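The 39 protein-coding genes of the human HOX clusters were examined in RH30 cells, a rhabdomyosarcoma line, as 39 of the 57189 genes in the deposited count table. Members were taken by symbol alone, HOXA, HOXB, HOXC or HOXD followed by a number. The set itself was chosen with earlier results of these data known. The study asked how BV6, a Smac mimetic that antagonises inhibitor of apoptosis proteins, changes transcription in these cells. Poly(A)-selected RNA was sequenced from 4 untreated cultures and from 3 cultures given 5 µM BV6 for 24 h, all RH30 labelled as wild type and grown in serum-containing medium. The labels name no vehicle for the untreated cultures. The study's methods describe its RH30 cells as carrying GFP and luciferase, and all 7 libraries come from this single cell line, so the spread given below is the spread between cultures of 1 line. The sample titles carry codes whose meaning is not given in the sources used here: untreated and BV6 replicates 2 share BC13, replicates 3 share BC14 and replicates 4 share BC25/27, while untreated replicate 1 (BC11) has no BV6 partner. Libraries with the same code are called a pair below.

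HOX genes encode homeodomain transcription factors that give cells their position along the body axis and the limbs. They lie in 4 clusters, HOXA on chromosome 7, HOXB on chromosome 17, HOXC on chromosome 12 and HOXD on chromosome 2, and are numbered from 1, the anterior end, to 13, the posterior end. Genes with the same number in different clusters are paralogues. In the embryo the anterior genes are switched on earlier and closer to the head than the posterior ones. HOX proteins bind DNA together with PBX and MEIS partners. Polycomb complexes hold the genes silent and Trithorax complexes keep them active, while retinoic acid induces the anterior genes. In the trunk, HOX genes act in the somites from which skeletal muscle arises.

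HOX genes resemble each other most in the homeobox, so it was asked whether reads of one member could be counted for another. Of the 39 members, 6 shared any exact 50-base run, the length of one read, with a member at another place in the genome. These were the pairs HOXB3 and HOXD3, HOXB6 and HOXB7, and HOXB4 and HOXB5, and at most 0.357% of a member's runs were shared in this way. Members with overlapping exons shared more, at 16.4% of HOXD10 runs with HOXD11 and 16% of HOXC4 runs with HOXC6. HOXB3 shared 5.05% of its runs with HOXB6.

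Promoters were available in RefSeq for 20 of the 39 members (27 windows of 250 bases before and 50 after the start, GRCh38.p14). Those of HOXA7, the highest HOXA gene, and of HOXB1 and HOXD4, which were not detected, are printed with each CpG in capitals because HOX promoters are known for their CpG content.
HOXA7, chr7:27156626-27156925, minus strand: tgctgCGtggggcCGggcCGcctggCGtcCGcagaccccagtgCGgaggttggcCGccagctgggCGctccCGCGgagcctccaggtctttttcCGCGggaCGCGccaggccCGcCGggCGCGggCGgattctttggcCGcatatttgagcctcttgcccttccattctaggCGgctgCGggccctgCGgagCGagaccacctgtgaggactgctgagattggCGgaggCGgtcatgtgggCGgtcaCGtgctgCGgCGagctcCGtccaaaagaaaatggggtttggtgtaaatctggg
HOXB1, chr17:48530962-48531261, minus strand: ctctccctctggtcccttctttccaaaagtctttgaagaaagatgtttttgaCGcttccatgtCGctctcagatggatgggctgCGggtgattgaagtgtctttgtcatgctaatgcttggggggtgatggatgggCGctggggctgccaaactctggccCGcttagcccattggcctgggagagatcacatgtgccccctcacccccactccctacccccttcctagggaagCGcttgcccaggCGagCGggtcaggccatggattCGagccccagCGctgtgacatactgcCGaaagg
HOXD4, chr2:176151300-176151599, plus strand: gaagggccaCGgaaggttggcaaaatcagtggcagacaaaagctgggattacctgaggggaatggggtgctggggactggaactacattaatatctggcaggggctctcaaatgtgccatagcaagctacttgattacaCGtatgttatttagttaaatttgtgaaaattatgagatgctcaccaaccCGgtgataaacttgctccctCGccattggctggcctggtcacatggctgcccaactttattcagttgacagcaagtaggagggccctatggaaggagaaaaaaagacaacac
The HOXA7 window held 31 CpG, the HOXB1 window 11 and the HOXD4 window 4, against a median of 22 in the 27 HOX windows and of 14 in all 35116 windows. CpG content did not mark detection in every case, since HOXD1, which was not detected, had 36 CpG and the detected HOXD8 had 34. The letters TATAAA, on either strand, stood in 5 of the 27 HOX windows (those of HOXA3, HOXA9, HOXA10 and HOXD13) and in 11.5% of all windows. TGATNNAT, a general form of the site bound by PBX with a HOX partner, was searched on either strand too. It stood in 3 of the 27, those of HOXA2, HOXB1 and HOXD11, and in 7.4% of all windows. Members without a window, and so not searched, included HOXA5, HOXB2 to HOXB9, HOXB13, HOXC6, HOXC8 to HOXC13 and HOXD9.

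Libraries held 54070030 to 77220882 counts. The floor was set at 3 counts and lay between 0.0389 and 0.0557 CPM, which are counts per 1000000 counts of the normalised library. Of 6 skeletal muscle markers, 5 had at least 3 counts in every library, among them MYOD1 (157 to 473 CPM), and the list summed to 1242 to 1686 CPM untreated and 944 to 1535 with BV6. Only MYF6 was near the floor. The adhesion gene CDH3 and the transcription factor TFAP2B, both among 6 listed markers of PAX3-FOXO1 rhabdomyosarcoma, were at or below 0.278 and 0.0995 CPM. The others on that list were higher, with PAX3 at 19.31 to 27.35 CPM and FOXO1 at 28.3 to 43.47, while FGFR4 and NOS1 reached 933 and 223. That list summed to 709 to 1187 CPM untreated and 452 to 750 with BV6. Of 8 leukocyte markers, PTPRC stayed at or below 0.801 CPM, but NKG7 reached 11.1 CPM and NCAM1, also a muscle gene, 266.5 to 483 CPM, so that the list summed to 354 to 495 CPM untreated and 274 to 400 with BV6. Endothelial CDH5 stayed at or below 0.259 CPM, but PECAM1 reached 68.2 CPM. In these bulk libraries, fewer cells making a transcript and less of it per cell cannot be told apart.

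Untreated RH30 cells transcribed HOX genes from all 4 clusters. With at least 3 counts in every untreated library as the criterion, 31 of 39 members were detected, namely 10 of 11 in HOXA, 9 of 10 in HOXB, 6 of 9 in HOXC and 6 of 9 in HOXD. The 8 others were HOXA11, HOXB1, HOXC5, HOXC8, HOXC12, HOXD1, HOXD4 and HOXD12. With at least 10 counts in every untreated library, 28 remained.

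Among the undetected genes, HOXD4, active in the hindbrain and the upper vertebrae, had 0 counts in each untreated library and 2, 5 and 0 counts in BV6 replicates 2, 3 and 4. HOXB1, a hindbrain gene, had 0, 0, 2 and 4 counts in untreated replicates 1 to 4 and 2, 0 and 0 after BV6. Neither gene met the criterion, and only untreated replicate 4 of HOXB1 and BV6 replicate 3 of HOXD4 exceeded 3 counts. HOXD4 lies between detected members of its cluster. HOXC5 was the highest of the undetected genes per kilobase of exon, with 6, 2, 4 and 20 untreated counts and 5, 2 and 8 counts after BV6, and 67.3% of its exon bases also belong to a noncoding gene. The lowest detected member, HOXD3, had 12, 8, 5 and 7 untreated counts and 2, 4 and 10 counts after BV6. The counts of HOXC5 and HOXD3 overlapped, so the border between detected and undetected genes was not a gap in level.

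Levels were compared between genes as CPM per kilobase of exon. The HOXB cluster carried most of the HOX transcripts, 62.5%, 67.6%, 60.1% and 64.3% of the summed level in untreated replicates 1 to 4. HOXA held 17.8% ± 1.44 (SD, n = 4), HOXD 9.58% ± 1.38 and HOXC 9.0% ± 1.29. In each untreated library the HOXB share was more than 3 times the HOXA share, and the ranges of HOXC and HOXD overlapped. The summed level of the 39 genes was 70.1, 70.0, 62.3 and 66.4 CPM per kilobase in these libraries. The 3 highest members, all in HOXB, took 45.3% ± 2.26 of it.

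**Figure D1:**
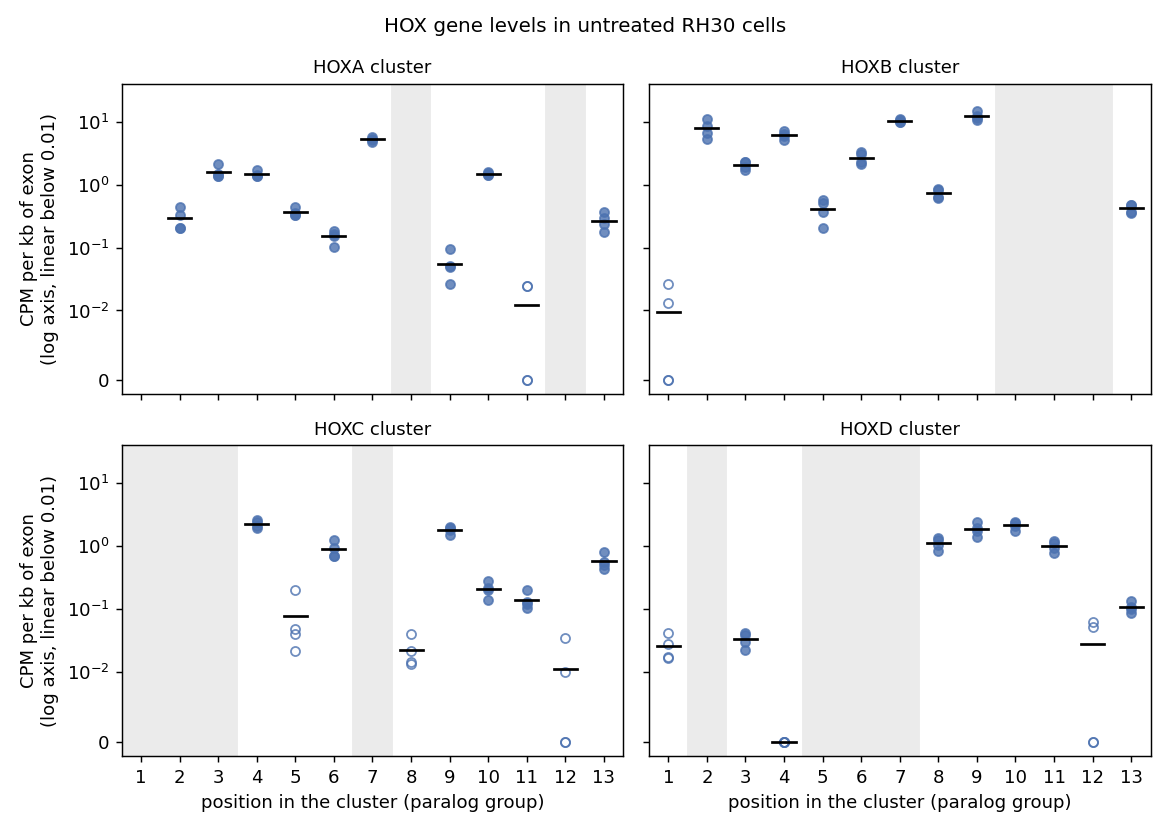
Level of 38 of the 39 HOX genes in untreated RH30 cells, in CPM per kilobase of exon on a log axis that turns linear near 0, by position from 1 to 13 in each cluster. Points are the 4 untreated libraries, black bars their mean, hollow points genes that were not detected, and gray bands positions without a gene in that cluster. HOXB9, HOXB7, HOXB2, HOXB4 and HOXA7 stand highest, and HOXB5 and HOXB8 lie far below the genes beside them.

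The highest member was HOXB9 (chr17:48621156-48626358, minus strand), which patterns the thoracic skeleton. Its level was 12.2 ± 1.84 CPM per kilobase (SD, n = 4), above that of 83.1% of 18826 protein-coding genes. HOXB7, a paralogue of HOXA7, followed at 10.4 ± 0.666 CPM per kilobase. HOXB2, which acts in the hindbrain and facial motor neurons, stood at 7.82 ± 2.46 and HOXB4, known from blood stem cells, at 6.09 ± 0.852. HOXA7, at 5.22 ± 0.421 CPM per kilobase, was the only gene outside HOXB among the first 5. The untreated ranges of neighbouring genes in this order overlapped everywhere but between HOXA7 and HOXB6 and between HOXA4 and HOXD8. Only 10 of the 39 members lay above the median of protein-coding genes.

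Per library, in CPM and in the order of untreated replicates 1 to 4, HOXB9 had 29.2, 31.9, 27.3 and 38.2, HOXB7 had 16.4, 14.9, 14.9 and 16.9, and HOXB2 had 20.7, 27.0, 16.0 and 13.2. HOXB7 was the steadiest of the 3, while HOXB2 varied by a coefficient of variation of 31.4%. In HOXA, the highest per kilobase were HOXA7 with 13.8, 12.5, 12.7 and 11.3 CPM, HOXA3, needed for thymus and parathyroid, with 9.22, 5.86, 5.84 and 6.33, and HOXA10, a uterine and limb gene, with 5.33, 5.59, 5.80 and 5.32. HOXA3 in replicate 1 stood apart from the other 3 libraries, and HOXA10 had a coefficient of variation of 4.21%.

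In HOXC, HOXC4 had 7.25, 5.39, 5.79 and 6.67 CPM, HOXC9, a thoracic motor neuron gene, had 3.22, 2.55, 3.32 and 2.99, and HOXC6 had 3.23, 2.42, 2.44 and 4.40. The HOXC9 and HOXC6 ranges overlapped on this scale. In HOXD, HOXD10, a gene of lumbar motor neurons and limbs, had 5.22, 6.16, 5.85 and 4.30 CPM, HOXD9 had 4.63, 3.33, 3.71 and 2.65, and HOXD8 had 2.72, 2.19, 3.53 and 3.35. No HOXC or HOXD gene reached the level per kilobase of HOXA7 in any untreated library.

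Neighbouring genes could differ strongly. HOXB8 lay between HOXB7 and HOXB9 but was lower than both per kilobase, HOXB7 being 14.2 times (11.6 to 17.2 over the 4 untreated libraries) and HOXB9 16.8 times (12.5 to 20.1) as high. HOXB4 was 14.8 times as high as HOXB5 (11.1 to 24.7). HOXB13, a prostate gene set apart from the rest of its cluster, was 29.4-fold below HOXB9 (22.5 to 39.7).

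HOXA7 was likewise bounded by low genes. It was 34.7 times as high as HOXA6 (28.7 to 51.1) and 94.4 times as high as HOXA9 (55.1 to 176), a gene known from blood cells and leukaemia. HOXA10, on the far side of HOXA9, was 26.9 times as high as HOXA9 (16.1 to 53.8). HOXA9 had only 12, 16, 9 and 5 untreated counts, so these ratios rest on few counts. In HOXC, HOXC9 was 8.54 times as high as HOXC10 (5.36 to 14.2). Ranges overlapped between the neighbours HOXA3 and HOXA4, HOXC10 and HOXC11, HOXD1 and HOXD3, and HOXD9 and HOXD10.

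By position, members 4 to 8 held 47.4% ± 1.42 of the summed level per kilobase in untreated cells, members 9 to 13 held 33.5% ± 2.25 and members 1 to 3 held 19.1% ± 3.05 (SD, n = 4). Position 9 and position 7 carried the largest parts. Members at position 9 held 22.5% to 27.1% across the untreated libraries, mostly as HOXB9, and those at position 7 held 23.2% ± 1.24. The most posterior genes were low, with HOXC13, a hair and nail gene, at 0.584 CPM per kilobase, HOXB13 at 0.417, HOXA13 at 0.266 and HOXD13 at 0.108, the last 2 being genes of hand and foot formation.

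**Figure D2:**
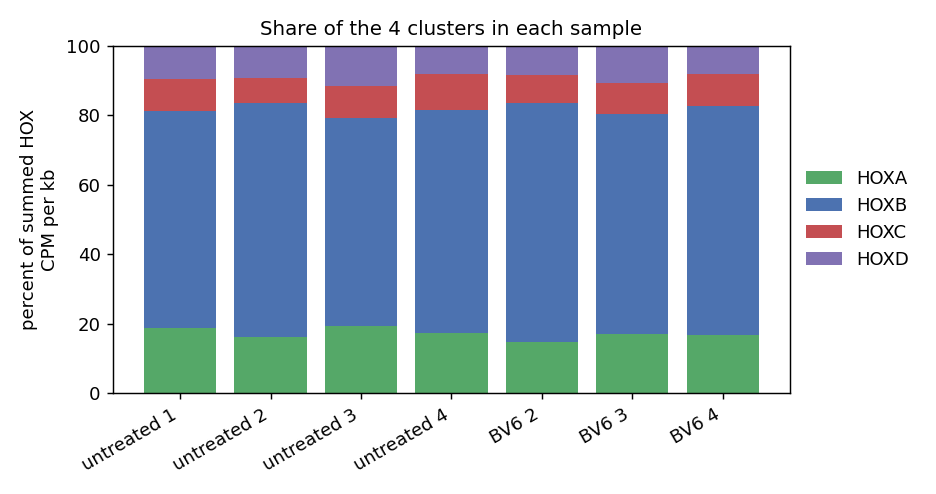
Share of the summed HOX level per kilobase held by each cluster, in percent, as stacked bars for the 4 untreated and 3 BV6 libraries. HOXB holds 60.1% to 69.0% in every library.

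Many HOX exons overlap those of another gene, which limits what a count of one gene means. By GENCODE 44, 25 of the 39 members shared exon bases with another gene, 20 of them with a gene on the opposite strand and 8 with another member on the same strand. The library kit marked strand, but whether the counting used it is not given in the sources used here. HOXA-AS3 covers 1507 bases, 62.5% of the HOXA7 exons, and its CPM was 0.732 to 0.850 times that of HOXA7 over the 7 libraries. It also covers 505 bases, 39.3% of the HOXA6 exons. HOXA10-AS, over 16.4% of HOXA10, had a ratio of 0.471 to 0.552, and HOXB-AS1, over 5.04% of HOXB3, had 0.452 to 0.595. The ratio was looser for HOXB-AS3 and HOXB6, at 0.553 to 0.935. Reads from these genes and from their antisense partners cannot be told apart in the counts if strand was not used. Not every partner had a comparable level. HOXC-AS2, over 9.78% of HOXC9, had 0 counts in every library except untreated replicate 3, which had 1. On the same strand, HOXD10 and HOXD11 share 452 bases, HOXC4 and HOXC6 share 484, and HOXB3 and HOXB6 share 433.

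**Figure D3:**
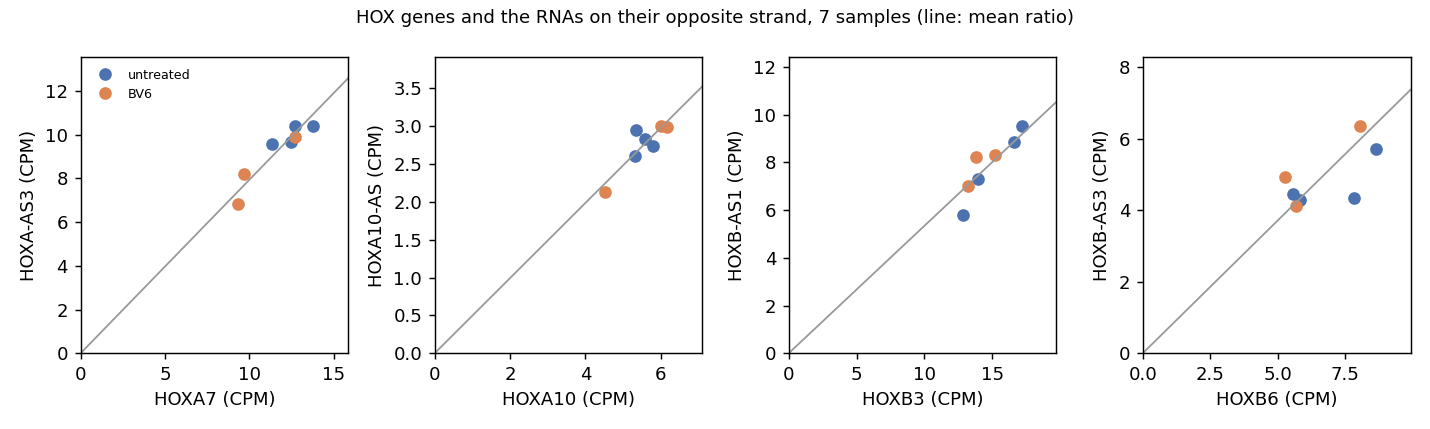
CPM of 4 noncoding genes on the opposite strand against the CPM of the HOX gene whose exons they overlap, on linear axes, with 1 point for each of the 7 libraries and a line at the mean ratio. HOXA-AS3 stays at 0.732 to 0.850 times HOXA7 and HOXA10-AS at 0.471 to 0.552 times HOXA10, while HOXB-AS3 scatters more widely about HOXB6.

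BV6 left HOX transcript levels without a detectable change at this depth and number of cultures. Of the 39 members, 29 had enough counts to be tested, and 0 of 29 passed an adjusted p of 0.05 in edgeR's quasi-likelihood test, against 0.45% of all 23124 genes tested (104 genes, 0.394% higher and 0.0562% lower). At an unadjusted p below 0.05 the count was 1 of 29, HOXB9, against 8.39% of all genes. DESeq2, fitted to all 39 members without a minimum count, called 0 and had 2 at an unadjusted p below 0.05. Shares over all genes are not given for DESeq2, here or below. HOX members had a median log2 fold change of -0.04, with 9 above and 20 below 0, and the median of all genes tested was -0.01. HOXA9 and HOXD3, detected but too low to test, had 6, 12 and 7 and 2, 4 and 10 counts in BV6 replicates 2 to 4.

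How far the data bound a change can be read from the intervals. For 24 of the 29 genes the 95% interval lay within a 2-fold change in either direction, as it did for 69.8% of all genes. The interval of HOXB7 ran from -0.28 to 0.40 and that of HOXA7 from -0.60 to 0.10, on the log2 scale. It reached beyond a 2-fold decrease for HOXA6, HOXB5, HOXB13 and HOXC10 and beyond a 2-fold increase for HOXA2, a gene of the pharyngeal arches. The summed level of all 39 members was 79.9, 62.5 and 64.4 CPM per kilobase in BV6 replicates 2 to 4, a mean of 68.9 ± 9.55 (SD, n = 3) against 67.2 ± 3.70 (n = 4) untreated. BV6 replicate 2 lay above every untreated library, and the other two lay within the untreated range.

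**Figure D4:**
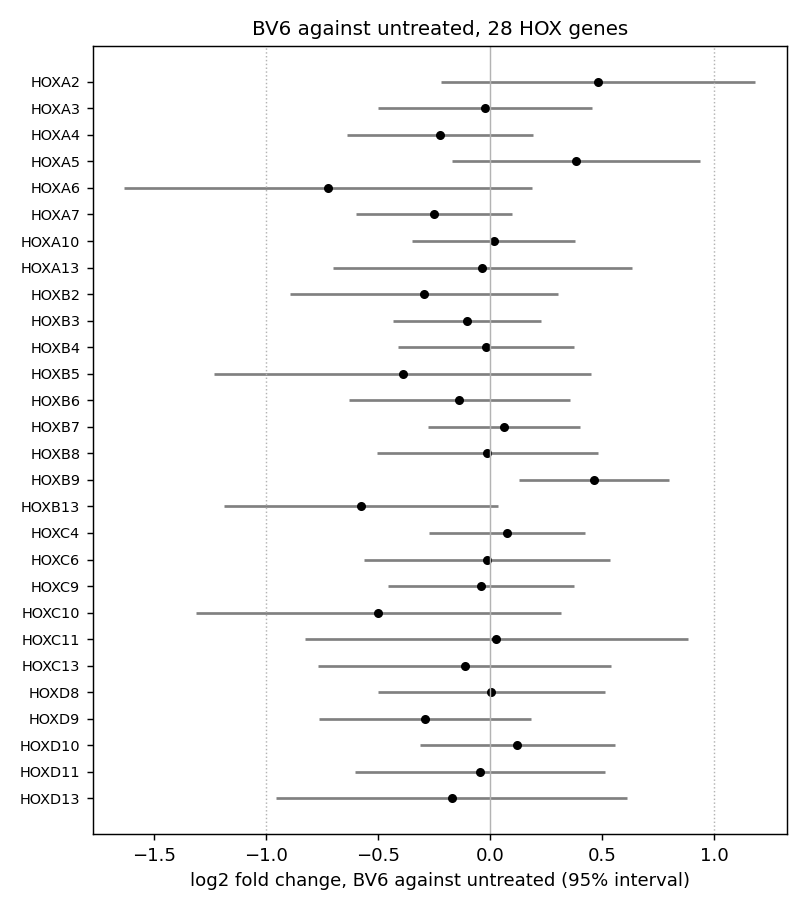
Log2 fold change of BV6 against untreated for 28 of the 29 HOX genes tested, as points with 95% intervals from edgeR, ordered by cluster and position, with dotted lines at a 2-fold change. The interval of HOXB9 alone leaves out 0, from 0.13 to 0.80, and no gene drawn passed the adjusted threshold.

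HOXB9 had the smallest p of the members. Its CPM was 50.7, 38.7 and 41.4 in BV6 replicates 2, 3 and 4, against 29.2, 31.9, 27.3 and 38.2 in untreated replicates 1 to 4. The 3 BV6 values lay above the 4 untreated ones, though BV6 replicate 3 was close to untreated replicate 4. The log2 fold change was 0.46 (SE 0.15, edgeR adjusted p = 0.385), and with the pair as a block it was 0.43 (edgeR adjusted p = 0.237). Within pairs the log2 ratios were 0.67, 0.50 and 0.12 for replicates 2, 3 and 4. Without BV6 replicate 2 the log2 fold change was 0.35 (edgeR adjusted p = 0.638).

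Members 9 to 13 held 38.1%, 39.7% and 38.1% of the summed level after BV6, above the 31.3%, 32.0%, 34.7% and 36.1% of untreated replicates 1 to 4. HOXB9 alone accounted for 24.6%, 23.9% and 24.9% after BV6 and for 16.1%, 17.6%, 16.9% and 22.2% untreated. With HOXB9 left out, the share of positions 9 to 13 was 17.9%, 20.7% and 17.6% after BV6, inside the untreated range of 17.4% to 21.4%. The higher share of posterior members thus rested on a single gene, which did not pass the adjusted threshold.

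HOXA6 (chr7:27145396-27150603, minus strand) was the other member whose groups did not overlap. Among the 29, 1 was apart on the higher side, against 4.94% of all genes, and 1 on the lower side, against 3.89%, or 2 in either direction against 8.83%. It had 18, 11, 8 and 13 counts in untreated replicates 1 to 4 and 7, 7 and 6 in BV6 replicates 2 to 4. In CPM these were 0.234, 0.196, 0.133 and 0.210 untreated and 0.125, 0.114 and 0.111 after BV6, all near the lower end of what the libraries resolve. The log2 fold change was -0.72 (SE 0.41, edgeR adjusted p = 0.692). HOXA-AS3, on the opposite strand, covers 39.3% of the HOXA6 exons and had a mean of 10.0 CPM untreated and 8.32 with BV6. Whether its reads entered the HOXA6 counts was not tested. HOXB13 had 0.854, 0.587 and 1.11 CPM after BV6 against 1.44, 1.07, 1.43 and 1.13, with a log2 fold change of -0.58 (SE 0.27, edgeR adjusted p = 0.619), and most of it came from replicate 3, at -1.28 within its pair.

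The other high members stayed inside or close to their untreated ranges. In BV6 replicates 2, 3 and 4, HOXB7 had 20.1, 14.4 and 14.9 CPM, HOXB2 had 21.0, 12.7 and 13.2, and HOXA7 had 12.7, 9.66 and 9.35. Replicate 2 of HOXB7 lay above its untreated values, and replicates 3 and 4 of HOXA7 and, narrowly, of HOXB2 lay below theirs. HOXA3 had 7.21, 5.33 and 7.61 CPM, HOXA10 had 6.0, 6.18 and 4.53, HOXC4 had 6.73, 6.49 and 6.63, and HOXC9 had 3.36, 2.90 and 2.52. HOXC6 had 2.87, 2.82 and 3.60 CPM, HOXD10 had 6.83, 6.09 and 4.62, HOXD9 had 2.90, 3.05 and 2.84, and HOXD8 had 2.67, 3.63 and 2.56. Each of these 8 genes overlapped its untreated range.

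**Figure D5:**
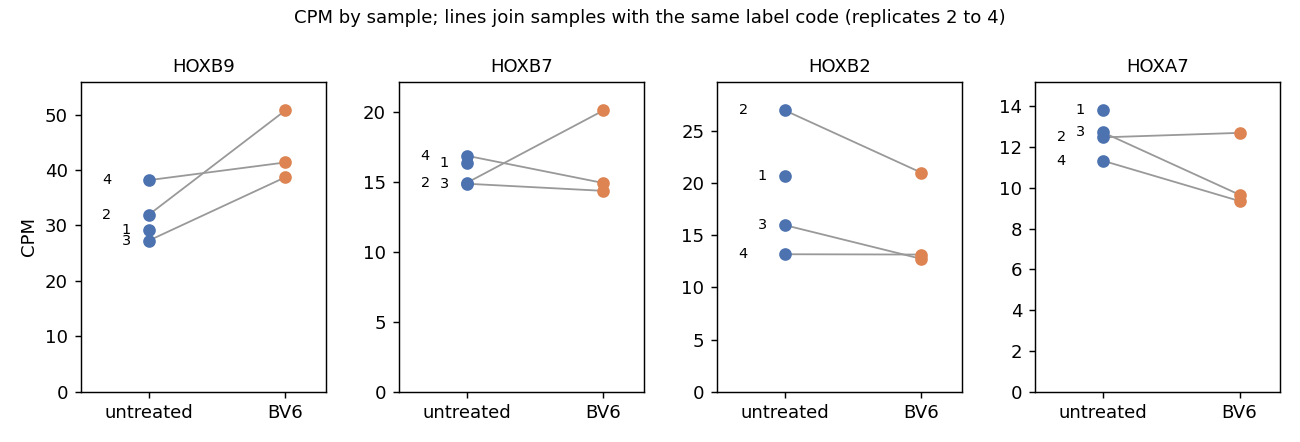
CPM of HOXB9, HOXB7, HOXB2 and HOXA7 in the 4 untreated and 3 BV6 libraries, with numerals giving the untreated replicate and lines joining libraries with the same label code. The groups do not overlap for HOXB9 and overlap for HOXB7, HOXB2 and HOXA7, and replicate 2 is highest for HOXB2 in both conditions.

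For some members, HOXB2, HOXB4 and HOXB6 among them, the highest and lowest pairs lay further apart than the libraries of 1 pair. HOXB2 had 27.0 CPM untreated and 21.0 with BV6 in pair 2, 16.0 and 12.7 in pair 3, and 13.2 and 13.2 in pair 4. HOXB4 had 14.2 and 14.6 CPM in pair 2, 10.1 and 10.1 in pair 3, and 11.7 and 11.4 in pair 4. HOXB6 had 8.63 and 8.06, then 5.59 and 5.26, then 5.83 and 5.70 CPM. HOXB2, HOXB4 and HOXB6 were highest in pair 2 in both conditions. Other members differed between pairs too, and HOXA13 and HOXB8 were lowest in pair 2 in both conditions. With the pair as a block, the standard error was smaller for 23 of the 29 genes, and that of HOXB2 went from 0.27 to 0.13, while 0 of 29 passed the adjusted threshold, against 0.943% of all genes. The direction within pairs was the same in all 3 for 9 of 29 members, against 33.3% of all genes. HOXA5, HOXB9 and HOXD10 were higher with BV6 in all 3, and HOXA4, HOXA6, HOXA13, HOXB2, HOXB6 and HOXB13 were lower.

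Genes that act with HOX proteins or on HOX clusters were measured from lists. Over all genes tested the median was -0.01, 0.45% passed the adjusted threshold and 8.39% had an unadjusted p below 0.05. Of 9 TALE homeodomain cofactors, 8 were tested, 0 passed and 2 had an unadjusted p below 0.05, with a median log2 fold change of -0.12. Among 30 Polycomb genes, all tested, 0 passed and 2 had an unadjusted p below 0.05, with 17 above and 13 below 0 and a median of 0.07. AEBP2, a subunit of the Polycomb complex that methylates histone H3, had 83.9 ± 9.23 CPM untreated and 103.7 ± 8.50 with BV6 (edgeR adjusted p = 0.531). Of 21 Trithorax and MLL genes, all tested, 0 passed and 2 had an unadjusted p below 0.05, with a median of -0.01. KMT2A, which keeps HOX genes active, had 147.4 ± 5.80 and 172.5 ± 3.53 CPM (edgeR adjusted p = 0.531).

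In the retinoic acid list, 13 of 18 genes were tested, 0 passed and 3 had an unadjusted p below 0.05 (8.39% of all genes), with 3 above and 10 below 0 and a median of -0.25. These 3 did not share a direction. RARA, a receptor, had 66.6 ± 13.2 CPM untreated and 44.8 ± 13.8 with BV6 (edgeR adjusted p = 0.556). CYP26B1, which degrades retinoic acid, had 63.1 ± 9.97 and 43.9 ± 11.0 (edgeR adjusted p = 0.430). RARB, another receptor, was higher with BV6, at 0.4805 ± 0.1563 CPM untreated and 0.8358 ± 0.255 with BV6 (edgeR adjusted p = 0.560). Of 18 noncoding genes of the HOX clusters 12 were tested, with 0 passing, 0 at an unadjusted p below 0.05 and a median of -0.06. HOXA-AS3 had 10.0 ± 0.455 CPM untreated and 8.32 ± 1.53 with BV6. DESeq2 also called 0 in each of these 5 lists.

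Homeobox genes outside the clusters gave the only call of these lists in edgeR. Of 24 listed, 12 were tested, 1 rose, against 0.394% of all genes, and 5 had an unadjusted p below 0.05, against 8.39%, with a median of -0.21. MEOX1, a factor of the somites, had 0.208, 0.142, 0.166 and 0.145 CPM in untreated replicates 1 to 4 and 2.06, 0.994 and 2.23 in BV6 replicates 2 to 4. All BV6 libraries lay above all untreated ones, with 61 to 120 counts against 8 to 16, and the log2 fold change was 3.38 (SE 0.35, edgeR adjusted p = 0.00494, and 0.00883 with the pair as a block). LBX1, a gene of migrating limb muscle precursors, had 8.20 ± 1.46 CPM untreated and 4.95 ± 0.968 with BV6 (log2 fold change -0.73, edgeR adjusted p = 0.237, DESeq2 adjusted p = 0.0325).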

How the data were processed

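RNA from RH30 cells was sequenced as 50-base read pairs from TruSeq stranded poly(A) libraries. The authors deposited 1 table of raw counts per gene symbol for the 7 libraries, made on GRCh38 with an Ensembl 95 gene model and, per the submitters' processing notes, STAR 2.6.1d. Values of 2 (23198) and 4 (11162) outnumbered values of 1 (14130) and 3 (7292) in the table, and how read mates were counted is not given in the sources used here. Every library's total count was above the largest number of reads per library given in the study's methods. Counting error is larger than the raw counts imply if mates were counted separately.

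Counts were tested with edgeR 4.0.16 (R 4.3.3; minimum count 10, TMM factors, quasi-likelihood F test, group as the only term) over 23124 genes, with Benjamini-Hochberg adjustment and a threshold of 0.05. Standard errors and 95% intervals were derived from the F statistics. Levels are CPM, or CPM per kilobase of the union of exons in GENCODE 44. An exact permutation test of 4 against 3 cannot go below p = 0.0571. Alternatives were DESeq2 1.42.0, RLE factors, other filters, halved counts, a replicate block and fits without each library. Codes shared in the sample titles, of unstated meaning, were taken to pair replicates 2, 3 and 4, since deviations of paired libraries from their group means correlated at r = 0.704, 0.434 and 0.244. Libraries with different codes correlated at -0.482 to 0.212. The highest of these, untreated replicate 4 with BV6 replicate 3, was close to the value of pair 4, so that pair is the least certain. Deviations in a group of 3 libraries sum to 0 for each gene, so positive values for pairs force negative ones elsewhere. The contrast between paired and other libraries is thus partly built in. The test was checked on simulated counts, with log2 changes of 2 set in 200 genes. Every HOX fold change fitted was smaller than that, so the check does not show that changes of their size would be found.

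The members and lists were chosen with earlier results of these data known. Per-library values are given for HOX genes with an unadjusted p below 0.05, the 3 highest per kilobase in each cluster, those whose groups do not overlap, the lowest detected and the highest undetected. From the other lists, the genes called and the 3 with the smallest p were eligible to be named. HOXB4, HOXB6, HOXB13, HOXA9, HOXB1 and HOXD4 were shown in addition, after their values were seen. Some genes and sequences are not reported here by name, but counts and sums over the members include all of them.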

Additional observations from a re-analysis of the deposited data

Results flagged for a closer look

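Within groups of 4 untreated libraries, 53 sets of values were examined for a library far from the others, of which chance alone would give about 1 in 20. HOXA3 stood at 9.22 CPM in untreated replicate 1 against 5.84 to 6.33 in the other untreated libraries, a gap of 0.853 of the whole range. HOXA4, its neighbour in the cluster, stood at 2.93 CPM in the same library against 2.35 to 2.42, a gap of 0.878 of the range. RARB, a retinoic acid receptor, stood at 0.713 CPM in untreated replicate 3 against 0.374 to 0.420, a gap of 0.864 of the range. Untreated replicate 1 had no BV6 partner with its label code.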

How the results depend on the processing

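No HOX gene was called under any of the 13 alternative settings, and the smallest adjusted p of any member ranged from 0.237 to 0.769 over them. Log2 fold changes under these settings were followed for the tested members that the rule above chose for per-library values, not for all members tested. HOXA6 was not tested in every setting. Of 164 such values, 142 kept their direction and 22 reversed. All stayed on the same side of the threshold, since no member was called in any setting. The median HOX log2 fold change was -0.137 to -0.0311 over the fits without 1 library each, the lowest being that without BV6 replicate 2, against -0.04 with all libraries. Genes close to 0 changed sign. With the pair as a replicate block, HOXA3 had a log2 fold change of 0.15, HOXA10 -0.0118, HOXC6 0.0488 and HOXD8 -0.0219, and the block changed no call of a HOX gene. HOXD8 was at -0.0101 in DESeq2, -0.0087 with RLE factors and -0.0015 without a filter. Over the fits without 1 library each, HOXA3 ranged from -0.13 to 0.16, HOXA10 from -0.0614 to 0.14, HOXB7 from -0.10 to 0.16, HOXC6 from -0.14 to 0.20, HOXC9 from -0.14 to 0.0508 and HOXD8 from -0.17 to 0.10. Calls among other homeobox genes were 2 in DESeq2 (MEOX1 and LBX1) and 0 with at least 10 counts in every library, a filter that removes MEOX1. With the longest transcript as length, the summed HOX level was 79.8 CPM per kilobase, and HOXA3 was at 2.09, HOXA6 0.195, HOXA7 6.24, HOXA10 2.17, HOXB2 11.4, HOXB7 11.6, HOXC4 3.68, HOXD3 0.0504 and HOXD10 3.02. The HOXA share was 19.8% in CPM without division by length. The number of libraries limits the tests, and members under 10 counts are limited by depth.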
